A study of Homo sapiens with 57 samples.

Results

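The 10 transcripts described here belong to the translation machinery and were followed across 9 messenger RNA libraries: 8 of ribosomal protein genes (RPL3, RPL4, RPL7A, RPL13A, RPLP0, RPS2, RPS18 and RPS27A) and 2 of elongation factor genes (EEF1A1 and EEF2). They were taken by transcript identifier, 1 per gene, from tables that list 228715 transcripts, and all 10 had a row in every table and passed the filter on low counts. The tables name no genes, so the gene names are those given with the identifiers. The other transcripts of these genes, and the other genes of the translation machinery, were not analysed here.

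The libraries came from HCT116, a human colorectal carcinoma cell line, and compared forms of Spt5. This protein binds RNA polymerase II during elongation, and its CTR1 is a repeat region in the C-terminal part that kinases phosphorylate. All 3 groups carried Spt5-HA-dhfr, a degron fusion whose stabilising ligand trimethoprim (TMP) was left out, and all received doxycycline at 2 ug/ml for 24 hours to induce Avi-Spt5, from residue 1 to 820 and with an Avi tag, from the pCW57 vector. The groups, of 3 libraries each, differed in its CTR1, which was WT, TA7 or TE7. WT therefore stands for cells that also lacked TMP and also made Avi-Spt5, not for unmodified cells. The form of CTR1 and the cells that carry it cannot be told apart, and the level of Spt5 itself was not analysed here. The labels do not say whether replicates were separate cultures, and the p-values below reflect variation among libraries that may be technical.

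Ribosomal proteins assemble with ribosomal RNA into the large subunit, which joins amino acids, and the small subunit, which reads the codons. EEF1A1 carries aminoacyl-tRNA to the ribosome and EEF2 moves the ribosome along the message after each bond is made. Messages of this class are among the most abundant in growing cells, and many begin with a 5′ terminal oligopyrimidine (TOP) tract, a C followed by an unbroken run of C and T at the first transcribed bases, through which growth signals control their translation.

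The start sites are shown because a TOP tract is a feature the choice of transcripts did not use. RefSeq starts on GRCh38.p14 were found for 9 of the 10 genes, 11 starts in all. Each line gives 30 bases, 5′ to 3′ on the gene's strand, of which the first 10 lie before the annotated start. Capitals mark the unbroken run of C and T from the first transcribed base, where that base is C.
RPL3, chr22:39319604-39319633, minus strand: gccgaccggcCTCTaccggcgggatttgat
RPL4, chr15:66504836-66504865, minus strand: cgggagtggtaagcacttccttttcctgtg
RPL7A, chr9:133348208-133348237, plus strand: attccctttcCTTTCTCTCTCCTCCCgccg
RPL13A, chr19:49487598-49487627, plus strand: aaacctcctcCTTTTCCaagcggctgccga
RPLP0, chr12:120201092-120201121, minus strand: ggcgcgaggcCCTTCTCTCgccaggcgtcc
RPS18, chr6:33272065-33272094, plus strand: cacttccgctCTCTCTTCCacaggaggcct
RPS27A, start 1, chr2:55231893-55231922, plus strand: agtgacacacaagacccagactcttcccta
RPS27A, start 2, chr2:55232668-55232697, plus strand: gggcctgcgcggcgttcttccttttcgatc
RPS27A, start 3, chr2:55232678-55232707, plus strand: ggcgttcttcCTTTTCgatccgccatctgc
EEF1A1, chr6:73521013-73521042, minus strand: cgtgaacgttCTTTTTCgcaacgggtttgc
EEF2, chr19:3985444-3985473, minus strand: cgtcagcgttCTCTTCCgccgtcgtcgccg

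Of the 11 starts, 7 had C followed by at least 4 further C or T, against 1429 of the 35116 starts in the RefSeq table (4.069%). These 7 starts lay in 7 of the 9 genes. The run was longest in RPL7A, at 16 bases, and reached 9 bases in RPLP0 and RPS18, 7 in RPL13A, EEF1A1 and EEF2, and 6 at the third RPS27A start. RPL3 had a run of 4 bases at its annotated start and RPL4 had none. An annotated start is a position in a database, and which start the measured transcripts used is not known from these tables.

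Depth was 64364751 to 67628672 estimated reads per WT library, 65723341 to 90805283 per TA7 library and 68578355 to 73794335 per TE7 library. Levels are given in TPM, which is scaled per effective length and to 1 total in each library, so that genes can be compared, and tests used the estimated read counts. CPM, the read count relative to library size after that size is multiplied by the library's TMM factor (0.92 to 1.037), is used where libraries are compared on the scale of the test. Among the TA7 libraries, replicate 2, the deepest of all 9, had the lowest TPM of each of the 7 abundant transcripts, and replicate 1 had the highest of each. Ribosomal protein and elongation factor genes have many processed pseudogene copies and several transcripts each, so reads shared between near-identical sequences can be divided differently from library to library.

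Of the 10 transcripts, 7 were abundant (1030 to 7027 TPM in every library) and 3 were not. RPS2 was the highest in each group, at 6672 ± 326 TPM in WT (SD, n = 3), and ranked 14 among all transcripts in every library. RPS18, RPL13A, RPLP0, RPL7A, RPL3 and EEF2 followed in WT, and in their best library ranked between 25 and 81. The RPL4 transcript (2741 bases) ranked 2509 at best, the RPS27A transcript (1071 bases) 917 and the EEF1A1 transcript (4441 bases) 15227. These 3 identifiers therefore stood for transcripts far below the other 7 in level, with EEF1A1 the lowest. The RPS27A and RPL4 transcripts still ranked 1880 and 3541 at worst among the 228715 listed. The values of these 3 describe single transcripts, not the output of their genes. The EEF1A1 transcript had only 729 to 1322 reads per library, against 66496 to 365168 for the 7 abundant transcripts.

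The order of levels differed between the groups in its middle. In WT, RPL13A (2299 to 2416 TPM) lay just above RPLP0 (2195 to 2281 TPM), and RPL7A (1742 to 1860 TPM) and RPL3 (1688 to 1867 TPM) overlapped. In TE7, RPLP0 (2554 to 2683 TPM) lay well above RPL13A (1636 to 1800 TPM), RPL13A overlapped RPL7A (1650 to 1678 TPM), and RPL3 (1230 to 1292 TPM) lay below both. In TA7 the ranges of RPLP0 and RPL13A overlapped, as did those of RPL13A and RPL7A and of RPL7A and RPL3. Within each TA7 library, however, the order from the top was RPLP0, RPL13A, RPL7A and RPL3. The ratio of TPM was 1.155 to 1.175 for RPLP0 over RPL13A, 0.819 to 0.891 for RPL7A over RPL13A and 1.068 to 1.161 for RPL7A over RPL3. RPS2 and RPS18 at the top, and EEF2, RPS27A, RPL4 and EEF1A1 at the bottom, kept their places in all 3 groups.

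**Figure D1:**
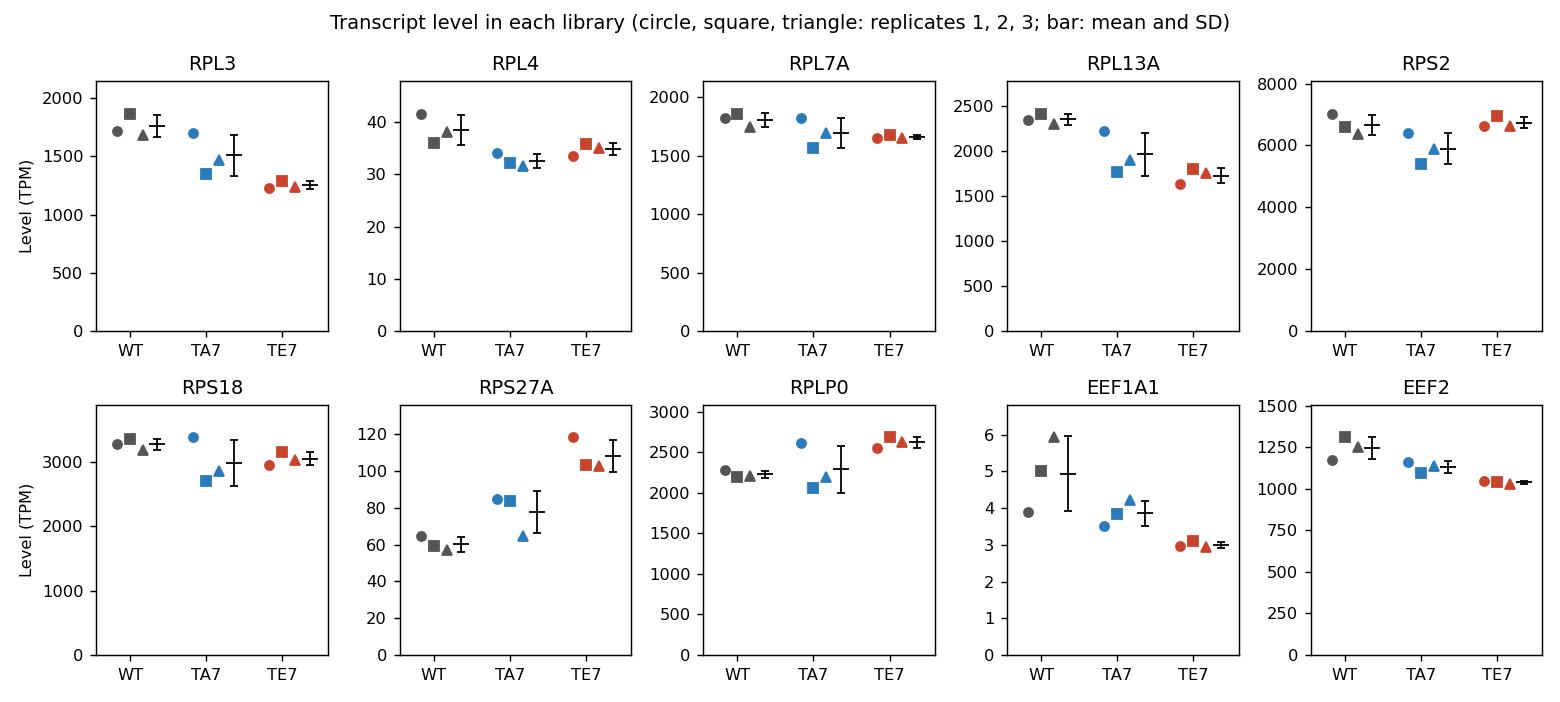
Level of each transcript in TPM (vertical axis, linear, from 0, scaled separately per panel) in the 3 WT, 3 TA7 and 3 TE7 libraries; symbols mark replicates and bars the mean and SD. The TE7 libraries lie below all those of WT for RPL3, RPL4, RPL7A, RPL13A, RPS18, EEF1A1 and EEF2, above them for RPS27A and RPLP0, and among them for RPS2.

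In TE7 against WT, 3 of the 10 transcripts were called lower, 1 was called higher and 6 did not pass the test. A transcript that did not pass is not thereby shown to be unchanged. RPL3, EEF1A1 and EEF2 fell and RPS27A rose at an adjusted p under 0.05 (edgeR quasi-likelihood test, Benjamini-Hochberg over 78478 transcripts). This share, 4 of 10, is to be read against 9.4% of all transcripts tested, 4.59% called higher and 4.81% lower. Calls were more frequent among abundant transcripts, which are measured with more reads. Of those at 100 CPM or more 31.1% were called, against 2 of the 7 abundant members, RPL3 and EEF2, both lower. Of those from 5 to under 100 CPM, the range of the other 3 members, 24.4% were called. The rise of RPS27A and the fall of EEF1A1 were in this range. The libraries of the groups did not overlap in CPM for 6 members, 4 with TE7 below and 2 with TE7 above, against 32.9% of all transcripts and 54.4% of those at 100 CPM or more. In TPM they did not overlap for 9 members, 7 with TE7 below (RPL4, RPL7A and RPS18 in addition) and 2 above, against 33% of all transcripts and 66.7% of those at 100 CPM or more. In bulk RNA, fewer cells with a transcript and less of it per cell cannot be told apart.

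Among the large-subunit proteins, RPL3 (ENST00000216146.9_3), which reaches toward the site of peptide bond formation, was the only one that fell past the threshold. Its level was 1720, 1867 and 1688 TPM in WT replicates 1 to 3, 1703, 1351 and 1471 TPM in TA7, and 1230, 1292 and 1240 TPM in TE7. Every TE7 library lay below every WT library and below every TA7 library in TPM, while TA7 replicate 1 lay within the WT range. RPL3 fell by 0.47 on the log2 scale in TE7 against WT (SE 0.111, 95% interval -0.73 to -0.22, edgeR adjusted p = 0.0384), a change of -27.9%. RPL3 was called in 8 of 10 alternative analyses and in 3 of the 9 that left out 1 library. Its call was lost without WT replicate 1 or 2, TA7 replicate 3 or any of the TE7 replicates, with an edgeR adjusted p of 0.0714 to 0.136. Without WT replicate 2 or TE7 replicate 1 none of the 10 transcripts was called. In those settings 3485 of 84425 and 3408 of 84603 transcripts were called.

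RPL13A (ENST00000391857.9_2), a surface protein of the large subunit also known for a role in translational silencing, had much the same profile without passing the test. Its TPM was 2344, 2416 and 2299 in WT, 2222, 1765 and 1903 in TA7, and 1636, 1800 and 1752 in TE7. The WT libraries lay above all the others, and the TE7 range met the lower part of the TA7 range. Its fitted log2 difference between TE7 and WT was -0.44 (SE 0.113, 95% interval -0.70 to -0.17, edgeR adjusted p = 0.0531), just short of a call. RPL13A was called in 5 of 10 alternative analyses and in 1 of the 9 that left out 1 library. Its side of the threshold thus depends on the setting.

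RPL7A (ENST00000323345.11_2), at the surface of the large subunit, did not pass the test. It was at 1819, 1860 and 1742 TPM in WT, 1819, 1568 and 1695 TPM in TA7, and 1650, 1678 and 1654 TPM in TE7. In TPM the TE7 libraries lay below those of WT, but in CPM they overlapped, at 1079 to 1141 CPM in TE7 and 1052 to 1340 CPM in WT. The log2 difference between TE7 and WT was -0.12 (95% interval -0.34 to 0.10, edgeR adjusted p = 0.504).

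The RPL4 transcript (ENST00000307961.11_3), of a protein that lines the peptide exit tunnel, lay far below the abundant members. It was at 41.6, 36.0 and 38.1 TPM in WT, 34.1, 32.2 and 31.5 TPM in TA7, and 33.6, 35.8 and 35.1 TPM in TE7. WT replicate 1 was the highest of the 9 and the TA7 replicates 2 and 3 the lowest. The TE7 libraries lay just below those of WT in TPM and overlapped them in CPM, at 73.9 to 81.1 CPM in TE7 and 74.1 to 97.8 CPM in WT. TE7 and WT differed by -0.09 on the log2 scale (95% interval -0.36 to 0.17, edgeR adjusted p = 0.7).

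RPLP0 (ENST00000392514.9_3), which forms the base of the stalk that recruits elongation factors, stood on the other side. Its TPM was 2281, 2195 and 2209 in WT, 2611, 2059 and 2198 in TA7, and 2554, 2683 and 2630 in TE7. The TE7 libraries lay above all WT libraries, and TA7 replicate 1 reached into the TE7 range while replicate 3 lay within the WT range and replicate 2 below it. In CPM, TE7 and WT were close to touching, with the lowest TE7 library at 2200 and WT replicate 1 at 2191. The log2 difference between TE7 and WT was 0.24 (SE 0.117, 95% interval -0.03 to 0.51, edgeR adjusted p = 0.249) and did not pass the test. RPLP0 was called in 0 of 10 alternative analyses and in 0 of the 9 that left out 1 library. It passed without WT replicate 1 and TA7 replicate 1 together, with an edgeR adjusted p of 0.0162. That setting was chosen after seeing the data, and 11.9% of all transcripts were called in it.

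The small-subunit proteins included the most abundant of the 10 transcripts. RPS2 (ENST00000343262.9_3), found near the entry of the messenger RNA channel, was at 7027, 6604 and 6386 TPM in WT, 6400, 5403 and 5881 TPM in TA7, and 6636, 6943 and 6635 TPM in TE7. The TE7 libraries lay within the WT range and above all those of TA7. Its log2 difference between TE7 and WT was 0.01 (95% interval -0.24 to 0.26, edgeR adjusted p = 0.975).

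RPS18 (ENST00000439602.7_2), in the head of the small subunit, was at 3285, 3360 and 3188 TPM in WT, 3385, 2709 and 2858 TPM in TA7, and 2955, 3157 and 3036 TPM in TE7. Its highest and its lowest library both belonged to TA7. TE7 differed from WT by -0.11 on the log2 scale (95% interval -0.36 to 0.14, edgeR adjusted p = 0.592). In CPM, RPS18 ranged from 1034 to 1155 in TE7 and from 1040 to 1300 in WT, so the groups overlapped on that scale, while in TPM the TE7 libraries lay below those of WT.

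The RPS27A transcript (ENST00000272317.10_1), whose gene encodes ubiquitin joined to a small-subunit protein, was the only one of the 10 called higher in TE7. It was at 64.8, 59.2 and 56.8 TPM in WT, 85.0, 83.6 and 64.6 TPM in TA7, and 118, 103 and 103 TPM in TE7. The TE7 libraries lay above all the others, and TA7 replicate 3 lay within the WT range. RPS27A rose 1.86-fold in TE7 against WT (log2 change 0.90, SE 0.154, 95% interval 0.54 to 1.25, edgeR adjusted p = 0.0129). The call was made in all 10 alternative analyses and in 7 of the 9 that left out 1 library, with an edgeR adjusted p of at most 0.055 in the others.

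Both elongation factor transcripts fell in TE7. EEF2 (ENST00000309311.7_3) was at 1175, 1310 and 1253 TPM in WT, 1162, 1095 and 1137 TPM in TA7, and 1050, 1040 and 1030 TPM in TE7. The 3 groups did not overlap in TPM, and the spread within TE7 was small, with an SD of 10.0 TPM. EEF2 fell by 0.23 on the log2 scale in TE7 against WT (SE 0.0586, 95% interval -0.37 to -0.10, edgeR adjusted p = 0.0473), a change of -14.9% and the smallest of the 4 called. It was called in 6 of 10 alternative analyses and in 1 of the 9 that left out 1 library.

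The EEF1A1 transcript (ENST00000316292.13_2) was at 3.88, 5.01 and 5.93 TPM in WT, 3.52, 3.83 and 4.21 TPM in TA7, and 2.97, 3.10 and 2.93 TPM in TE7. The WT libraries were the most spread, and WT replicate 1 lay within the TA7 range in TPM, though not in CPM. It fell by 0.63 on the log2 scale in TE7 against WT (SE 0.112, 95% interval -0.89 to -0.37, edgeR adjusted p = 0.0148), a change of -35.2%. All 10 alternative analyses and 6 of the 9 that left out 1 library called EEF1A1. At this depth the value describes 1 rare, long transcript of a gene with many copies in the genome.

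**Figure D2:**
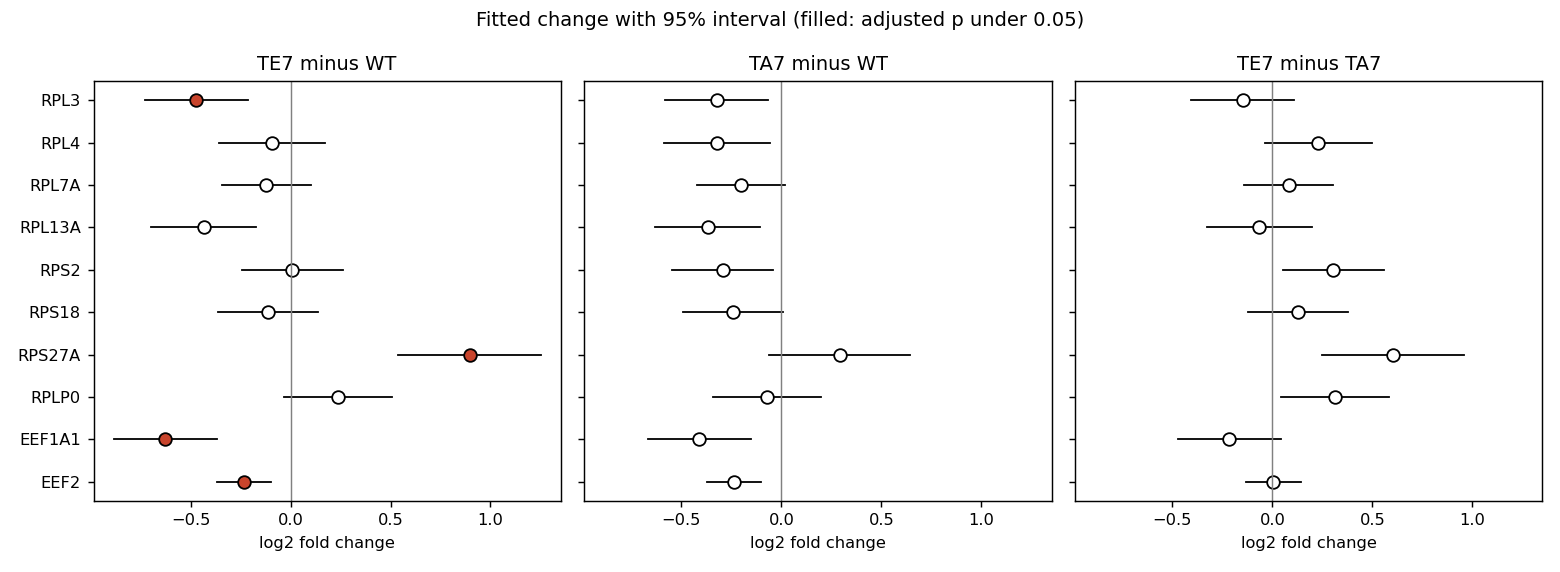
Fitted log2 fold change of each transcript (horizontal axis) with its 95% interval, in TE7 minus WT, TA7 minus WT and TE7 minus TA7; filled points passed an adjusted p under 0.05. The filled points are RPL3, RPS27A, EEF1A1 and EEF2 in TE7 minus WT, and the other 2 comparisons have none.

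In TE7 against WT the 10 transcripts had a median log2 change of -0.12, as did the 7 abundant ones. Over all transcripts tested the median was -0.02, and over the 1224 transcripts at 100 CPM or more with a length between 549 and 4441 bases, the range of the members, it was 0.13. Of those 1224, 228 were called higher and 115 lower. RPL3 and EEF2 were among those 115. Among the genes with a TOP tract at an annotated start, the transcripts measured were not called in 1 direction. EEF1A1 and EEF2 fell, RPS27A rose, and RPL7A, RPL13A, RPS18 and RPLP0 did not pass the test. The EEF1A1 and RPS27A transcripts were not among the 7 abundant ones, their own starts are not known, and only the third RPS27A start had the tract. Among the abundant ones, log2 differences were -0.12 (RPL7A), -0.44 (RPL13A), -0.11 (RPS18), -0.23 (EEF2) and 0.24 (RPLP0). RPL3, with the run of 4 bases, fell.

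The effective length, which Salmon estimates in each library for the stretch of a transcript from which reads could come, moved with the groups. In TE7 its mean differed from that in WT by -4.19% (RPS18) to -2.06% (EEF2) in the 7 abundant transcripts and by 0.385% to 1.40% in the other 3. Its group means for EEF2, 3196 to 3264, exceeded the transcript's own length of 3158 bases, so it is an adjusted estimate rather than a count of positions. A shorter effective length raises TPM for a given read count, and a longer one lowers it. With effective length as an offset in the edgeR fit, RPL3, RPS27A and EEF1A1 were called and EEF2 was not, with an adjusted p of 0.0731.

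In TA7 against WT no transcript of the 10 passed the test (edgeR, 0 of 10 called), in a comparison in which 0.0612% of all transcripts did. Of the 10 fitted values, 9 were below 0. The median log2 change was -0.27 over the 10 and -0.24 over the 7 abundant ones. It was 0.0005 over all transcripts and -0.03 over those at 100 CPM or more. At an unadjusted p under 0.05 edgeR counted 6 members, all with values below 0, against 7.73% of all transcripts and 20.6% of those at 100 CPM or more. DESeq2 called 3 members, against 2.81% of all transcripts, and limma on log2(TPM + 1) called none, against 0.152%. The groups did not overlap in CPM for 4 members, all with TA7 below WT. This compares with 14.1% of all transcripts and 21.2% of those at 100 CPM or more. In TPM the groups did not overlap for 3 members (RPL4, RPL13A and EEF2), against 14.4% and 31%.

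By role, the large-subunit transcripts RPL3, RPL13A, RPL4 and RPL7A had log2 differences of -0.32, -0.37, -0.32 and -0.20 between TA7 and WT, with edgeR adjusted p of 0.518, 0.455, 0.543 and 0.69. RPLP0 stood at -0.07 (edgeR adjusted p = 1). The small-subunit transcripts RPS2 and RPS18 stood at -0.29 and -0.24 and RPS27A at 0.29, with edgeR adjusted p of 0.569, 0.662 and 0.732. EEF2, at -0.24 (95% interval -0.37 to -0.10, edgeR adjusted p = 0.318), lay beside -0.23 for TE7 against WT, and in neither comparison did its libraries overlap in CPM. EEF1A1 stood at -0.41 (edgeR adjusted p = 0.374). DESeq2 gave adjusted p of 0.0442 for RPL13A, 0.0174 for EEF1A1 and 0.000833 for EEF2. Both comparisons use the same 3 WT libraries, so a WT library that is high or low shifts both.

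TE7 against TA7 called none of the 10 with edgeR, against 3.07% of all transcripts. The difference itself uses no WT level, but the WT libraries entered the shared filter, scaling and estimate of spread. Of the fitted values, 7 were above 0. At an unadjusted p under 0.05 edgeR counted 3 members (RPS2, RPS27A and RPLP0, all higher in TE7), against 19.3% of all transcripts and 50.9% of those at 100 CPM or more. DESeq2 called 2 members, RPS2 and RPS27A, against 13.4% of all transcripts, and limma on log2(TPM + 1) called none, against 3.95%. Libraries did not overlap in CPM for 5 members, against 31.5% of all transcripts and 63.8% of those at 100 CPM or more. RPL4, RPS2, RPS27A and RPLP0 lay higher in TE7 and EEF1A1 lay lower, so of the abundant members only RPS2 and RPLP0 did not overlap. In TPM 5 members did not overlap, against 32.4% of all transcripts and 61.2% of those at 100 CPM or more. Here RPS2 and RPS27A lay higher in TE7 and RPL3, EEF1A1 and EEF2 lay lower.

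The RPS27A transcript had the largest difference, 0.60 on the log2 scale (SE 0.153, 95% interval 0.25 to 0.96, edgeR adjusted p = 0.0815). RPLP0 and RPS2 followed at 0.31 (edgeR adjusted p = 0.2) and 0.30 (edgeR adjusted p = 0.18). RPL4 stood at 0.23, RPS18 at 0.13 and RPL7A at 0.08, with edgeR adjusted p of 0.33, 0.605 and 0.742. RPL3, RPL13A and EEF1A1 stood at -0.15, -0.07 and -0.22, with edgeR adjusted p of 0.546, 0.84 and 0.346. EEF2, whose TE7 libraries lay below those of TA7 in TPM, overlapped in CPM (2908 to 3059 in TE7 and 2796 to 3080 in TA7) and stood at 0.01 on the log2 scale (95% interval -0.13 to 0.14, edgeR adjusted p = 0.982). The median of the 10 was 0.11, beside -0.02 over all transcripts and 0.12 over those at 100 CPM or more.

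Summed, the 10 transcripts took 1.70%, 1.69% and 1.55% of the estimated reads in WT, 1.57%, 1.31% and 1.43% in TA7, and 1.46%, 1.57% and 1.50% in TE7. The means were 1.65% ± 0.0829, 1.44% ± 0.133 and 1.51% ± 0.0552 (SD, n = 3). TE7 differed from WT by -0.138 percentage points and TA7 from WT by -0.209 points, each larger than the SD of either group. TA7 and TE7 differed by 0.0703 points, less than the SD in TA7, and this difference was 0.00551 points without TA7 replicate 2, 0.0405 without TE7 replicate 2 and 0.138 without TA7 replicate 1. WT replicate 3 overlapped the upper ends of both other groups. RPS2 and EEF2, with the most reads, weigh most in this sum, so it does not show the rise of RPS27A.

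**Figure D3:**
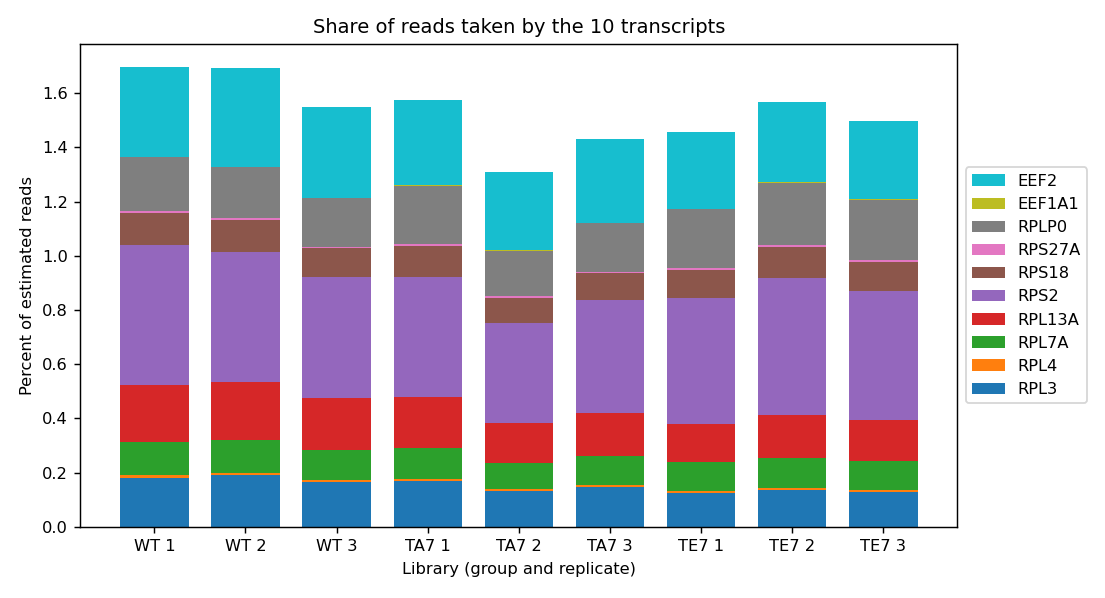
Percent of all estimated reads (vertical axis, from 0) taken by the 10 transcripts in each of the 9 libraries, stacked by transcript. The sum runs from 1.31% in TA7 replicate 2 to 1.70% in WT replicate 1, and RPS2 and EEF2 form the largest blocks.

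The ratio of 2 transcripts within a library does not depend on the scaling of that library. Over the 21 pairs of the 7 abundant transcripts, the largest shift between WT and TE7 was in RPLP0 over RPL3. That ratio of TPM was 1.27 ± 0.0823 in WT, 1.517 ± 0.0207 in TA7 and 2.091 ± 0.0257 in TE7 (SD, n = 3), a 1.649-fold shift between WT and TE7. The TA7 libraries lay between the other groups, at 1.494 to 1.534, above the highest WT library at 1.326 and below the lowest TE7 library at 2.076. TA7 replicates 1 to 3, which differed 1.26-fold in the TPM of RPL3, thus held nearly the same ratio. The mean effective lengths of RPLP0 and RPL3, which enter this ratio, differed between TE7 and WT by -3.18% and -2.67%.

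RPLP0 over RPL13A shifted in the same way, from 0.9475 ± 0.0344 in WT to 1.166 ± 0.0101 in TA7 and 1.518 ± 0.0381 in TE7. RPS2 over RPL3 was 5.373 ± 0.0227 in TE7, against 3.802 ± 0.275 in WT and 3.919 ± 0.138 in TA7, which overlapped. RPL13A over RPL3 stayed near 1.34 ± 0.0394 in WT, 1.302 ± 0.00724 in TA7 and 1.379 ± 0.0432 in TE7. The smallest shift, 1.012-fold, was in RPS18 over RPL7A. These ratios were picked after their values were seen and have no test, and a ratio shows that its members changed unequally, not which of them changed.

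**Figure D4:**
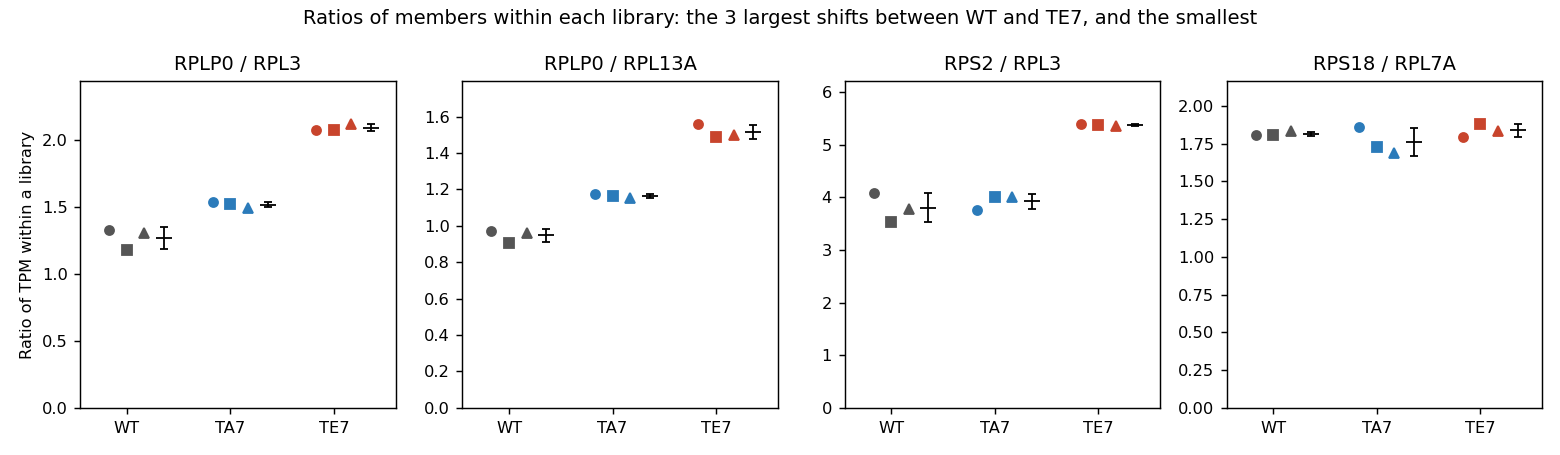
Ratio of the TPM of 2 transcripts within each library (vertical axis, from 0), for the 3 pairs with the largest shift between WT and TE7 and the pair with the smallest; symbols mark replicates and bars the mean and SD. RPLP0 over RPL3 rises from 1.27 in WT to 1.517 in TA7 and 2.091 in TE7 with no overlap, while RPS18 over RPL7A stays between 1.758 and 1.836 in the group means.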

How the data were processed

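RNA was extracted with Trizol, selected with oligo-dT and made into 9 libraries with a Tecan/Nugen kit, as the labels' protocols state. The other 48 of 57 samples were not used here. Cutadapt 2.3, Salmon 1.3.0 and hg19 are named in the submitters' processing notes, and the transcript set is not given in the sources used here. The deposited tables list, per the file headers, a length, an effective length, a TPM and an estimated count for each transcript. The authors' estimated counts are raw and split shared reads among transcripts. The authors' TPM values account for effective length and sum to the same total in every library.

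Estimated counts were rounded and filtered with the group default of edgeR 4.0.16 (R 4.3.3), leaving 78478 transcripts and 99.67% to 99.79% of reads. TMM factors were 0.92 to 1.037. One quasi-likelihood model was fitted to all 9 libraries, with Benjamini-Hochberg adjustment over all transcripts tested and a threshold of 0.05. The method was tested on simulated counts in which only transcripts at 100 CPM or more were changed. That run did not cover the 3 members below 100 CPM or the division of reads shared between transcripts. All 10 members are named, as the rule for named genes asks. Members and lists were chosen with earlier results of these data known. The planned list of other translation genes needs gene names and was not analysed here. Alternatives were DESeq2 1.42.0, limma 3.58.1 on log2(TPM + 1) and log2(TPM + 0.1), other scalings and filters, 2 groups only, a replicate block, an effective length offset and leaving out libraries. Reads are not counts of independent molecules.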

Additional observations from a re-analysis of the deposited data

How the results depend on the processing

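In TE7 against WT, 4 of the 10 transcripts were called, against 9.4% of all transcripts. With no filter 2 were called, against 4450 of 145209 transcripts, and with a replicate block 2, against 6.77%. When 1 library was left out, 0 to 4 were called (brackets give all transcripts called of those tested). None was called without WT replicate 2 (3485 of 84425) or TE7 replicate 1 (3408 of 84603), and 1 without TE7 replicate 3 (3515 of 84274). There were 2 without WT replicate 1 (9902 of 84939), TA7 replicate 3 (5096 of 84202) or TE7 replicate 2 (3129 of 84425). With the replicate block RPL3 (edgeR adjusted p = 0.063) and EEF2 (0.0871) lost their calls and RPS27A and EEF1A1 kept them. The deviations of libraries with the same replicate number correlated at over 0.1 in 5 of 9 pairs (-0.114 to 0.306), among them all pairs of replicates 3 and none of replicates 2, against 4 of 18 pairs with other numbers (-0.317 to 0.143). Not every pair passed 0.1 and the labels give no shared source, so the numbers were not used to pair the libraries. In TA7 against WT, with 0 called, DESeq2 called 3 (2.81% of all transcripts), and leaving out 1 library gave 0 to 0. In TE7 against TA7, with 0 called, DESeq2 called 2 (13.4% of all transcripts). The filter at 1 CPM in 3 libraries called 1 (RPS27A, edgeR adjusted p = 0.047), against 4311 of 43897 transcripts. The replicate block called 1 (RPS27A, edgeR adjusted p = 0.0393), against 1.4%. Leaving out 1 library called 0 to 1. The 1 was RPS27A without WT replicate 1 (edgeR adjusted p = 0.0483), where 4782 of 84939 transcripts were called. Leaving out WT replicate 1 and TA7 replicate 1 together, chosen after seeing the data, called 4 there (RPL4, RPS2, RPS27A and RPLP0). Of all transcripts, 6.04% were called in that setting. The other settings left each count within 1.5 times.

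Some fitted log2 differences changed sign, none of them called. TE7 against WT: RPL4 was 0.057 without both of those libraries and -0.16 to 0.058 with 1 library left out, and RPS2 was -0.0022 with the 1 CPM filter and -0.07 to 0.12 with 1 library left out. TA7 against WT: RPLP0 was 0.032 with limma at either pseudocount and -0.18 to 0.039 with 1 library left out. TE7 against TA7: RPL7A was -0.026 with limma at either pseudocount. RPL13A was 0.037 without both libraries and -0.14 to 0.046 with 1 left out. EEF2 was -0.061 with library size alone, -0.01 with the 1 CPM filter, -0.0025 with 2 groups only, -0.12 with limma at either pseudocount and -0.027 to 0.039 with 1 left out. The differences in summed share kept their sign in the settings run. With the 100 most abundant transcripts, members excepted, left out of the total, TE7 minus WT was -0.21 points. That total is smaller, so the value is not on the scale of the -0.138 points found over all reads. TE7 minus TA7 ran from 0.00551 to 0.138 points with 1 library left out. The cause was not tested in any of these.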
